A study of Mus musculus with 2 samples.

Results

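Chemokines are small secreted proteins that draw leukocytes along a gradient, and the genes described here encode these ligands and their receptors, in Colon26 primary tumours set against liver metastases. The 31 genes were those whose current symbol has the form of a chemokine (Ccl, Cxcl, Cx3cl1, Xcl1), of a signalling receptor (Ccr, Cxcr, Cx3cr1, Xcr1) or of an atypical receptor (Ackr, Ccrl), and which had a value on both arrays, out of 13506 genes measured on both. Colon26 is a colon carcinoma line of Balb/c origin, and the cells were injected into the submucosa of the rectum of Balb/c mice, whose immune system is intact. Each of 2 arrays held RNA of a primary tumour, labelled with Cy5, and of a liver metastasis, labelled with Cy3, and the tumours of the 2 arrays were grown and harvested separately. The labels ascribe the RNA to Colon26 cells and give no sex, age or time of harvest and no step that removed host cells, so RNA of leukocytes, vessels and surrounding tissue may be part of both channels.

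Ligands are named by the spacing of their first cysteines, as CC, CXC, XC or CX3C chemokines. They bind receptors that span the membrane repeatedly and signal through inhibitory G proteins, which lets a leukocyte sense the gradient and move. Atypical receptors bind chemokines without coupling to G proteins and clear or transport them. In tumours of the colon and liver, these genes are expressed by carcinoma cells, fibroblasts, endothelium and macrophages as well as by the leukocytes that respond to them.

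Every value below is a log ratio of the 2 channels of an array, taken as log2, and the errors are the SD of the 2 arrays (n = 2). The sources used here do not state which channel is the numerator, so the positive and the negative side are given without naming the tissue that each stands for. The deposited table holds ratios and no intensities. A level in one tissue, and the labelled tissue itself, could therefore not be checked, and in bulk RNA fewer cells of a type and less RNA per cell cannot be told apart. The dyes were not swapped, so a probe's dye bias and the difference between tissues cannot be told apart, and having only 2 arrays limits the precision.

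The family as a whole had no common side, and 2 of its members stood out on the positive side. Ccr8, a receptor of helper and regulatory T cells, and Cxcl9, an interferon-induced ligand that attracts activated T cells, passed an adjusted p of 0.05 in limma's moderated test over all genes. Of the 31 genes, 10 lay on the positive side of both arrays, 11 on the negative side of both and 10 changed side, with a median of -0.06. Over all 13506 genes, 4585 lay on the positive side of both, 5162 on the negative side of both and 3759 changed side, with a median of -0.02. The calls were 2 positive and 0 negative among the members, where 2.12% of all genes were called positive, 0.777% negative and 2.90% in either direction. An unadjusted p under 0.05 in limma's test was met by 11 of the 31 members and by 27.5% of all genes.

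**Figure D1:**
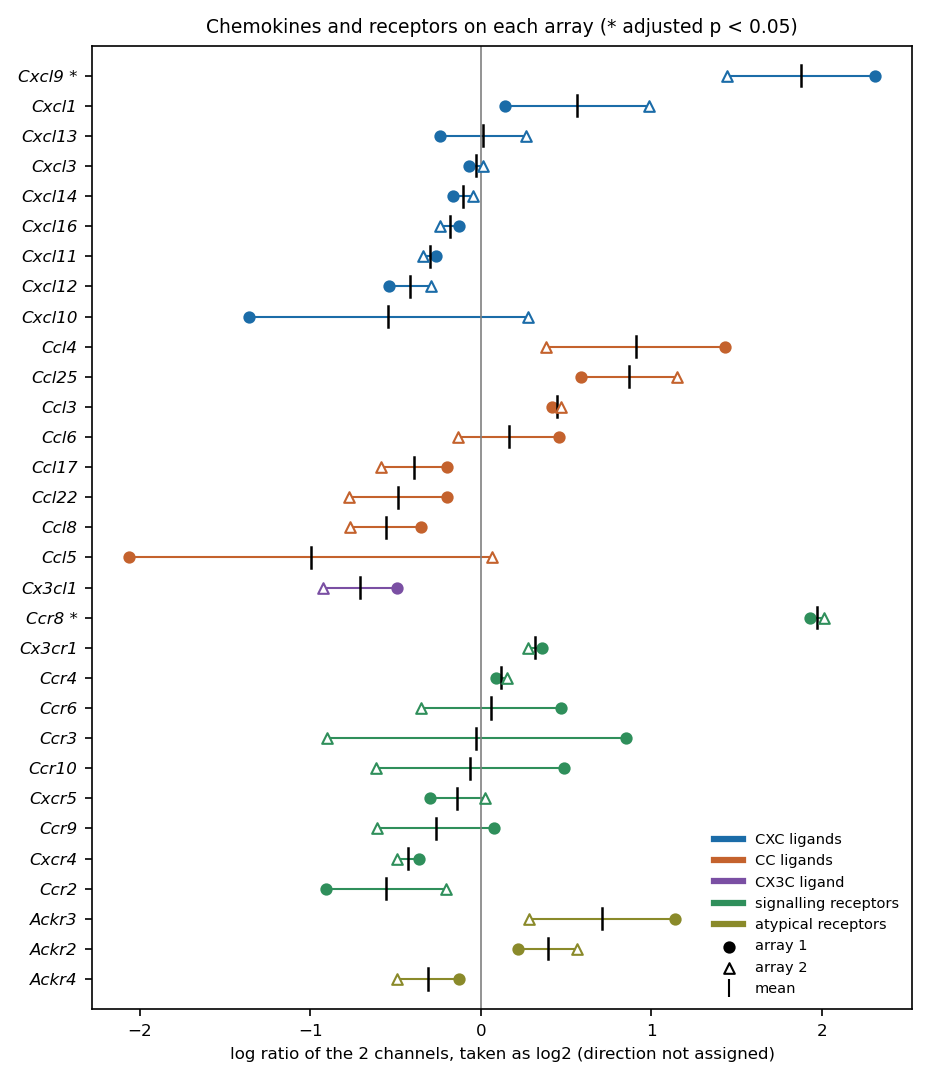
Log ratio (taken as log2, horizontal axis) of each of the 31 chemokine and receptor genes on array 1 (filled circles) and array 2 (open triangles), with the mean as a black bar, coloured by class. Ccr8 and Cxcl9, marked with an asterisk, are the genes with an adjusted p under 0.05, while the array values of Ccl5, Ccr3 and Cxcl10 lie on opposite sides of 0.

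Ccr8 had 1.93 on array 1 and 2.01 on array 2. The arrays lay close together, 0.08 apart, and both were far from 0. The mean was 1.97 ± 0.06 (SD, n = 2) with a 95% limma interval from 1.58 to 2.36 (adjusted p = 0.0282 in limma), a ratio of 3.92-fold if the logarithm has base 2 and of 7.18-fold if it is natural. By unadjusted p it ranked number 18 of the 13506 genes. The call held in 5 of 7 alternative settings and was lost after quantile normalization (adjusted p = 0.0641 in limma) and without moderation (adjusted p = 0.462 in the same fit with ordinary variances), and the lowest of the 7 was 0.0291.

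Cxcl9 had 2.31 on array 1 and 1.44 on array 2. Both values were positive and far from 0, but they lay 0.87 apart, a gap at or above that of 93.0% of genes. The mean was 1.88 ± 0.61 (SD, n = 2) (adjusted p = 0.0423 in limma), and the 95% limma interval ran from 1.25 to 2.50. Its call lay near the threshold: it held in 1 of 7 alternatives, centring on the median (adjusted p = 0.0441 in limma), and in the other 6 the adjusted p ran from 0.0510 with robust moderation to 0.492 without moderation.

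The start regions of Ccr8, Cxcl9 and Cxcl10 are shown because they belong to the called genes and to the neighbouring ligand of the same receptor as Cxcl9, whose ratio differed between arrays. Each is a window of 300 bases, 250 before and 50 after the annotated start, from RefSeq on GRCm38.p6, written 5′ to 3′ on the strand of the gene. Capitals mark matches, on either strand, to the CCAAT box, the TATA box in the form TATAAA, the core of the interferon response element (GAAA and, after any 2 bases, the same letters again), the gamma activated site (TTCNNNGAA) and the kappaB consensus.
Ccr8, chr9:120091883-120092182, plus strand: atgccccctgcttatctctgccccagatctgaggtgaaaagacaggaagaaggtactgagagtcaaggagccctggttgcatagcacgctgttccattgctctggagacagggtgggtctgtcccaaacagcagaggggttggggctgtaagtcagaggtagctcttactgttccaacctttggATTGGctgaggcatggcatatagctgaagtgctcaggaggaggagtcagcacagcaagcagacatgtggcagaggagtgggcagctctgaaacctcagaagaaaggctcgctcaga
Cxcl9, chr5:92328030-92328329, minus strand: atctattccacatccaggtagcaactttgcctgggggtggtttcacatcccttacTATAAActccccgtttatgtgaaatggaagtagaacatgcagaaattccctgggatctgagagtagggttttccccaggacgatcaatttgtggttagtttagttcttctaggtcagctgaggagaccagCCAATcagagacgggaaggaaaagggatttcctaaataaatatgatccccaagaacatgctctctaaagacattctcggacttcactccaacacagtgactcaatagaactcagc
Cxcl10, chr5:92348840-92349139, minus strand: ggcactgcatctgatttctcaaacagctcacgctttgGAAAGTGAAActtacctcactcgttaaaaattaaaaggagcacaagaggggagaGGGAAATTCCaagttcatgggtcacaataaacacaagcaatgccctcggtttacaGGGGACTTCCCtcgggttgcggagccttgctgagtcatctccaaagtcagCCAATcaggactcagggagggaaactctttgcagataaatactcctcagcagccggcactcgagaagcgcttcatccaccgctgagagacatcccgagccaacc

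The starts of Cxcl9 and Cxcl10 lie 20810 bases apart on chromosome 5. The Cxcl9 window holds a CCAAT box that begins 65 bases before the start and a TATA box match 195 bases before it. In Cxcl10 the interferon response element core gaaagtgaaa begins 213 bases before the start. The kappaB consensus has 3 matches there, of which 2 overlap, and a CCAAT box lies 54 bases before the start. The Ccr8 window has a CCAAT box on the opposite strand, 66 bases before the start. Among 32841 windows of all genes, 37.4% held a CCAAT box, 13.6% the TATA box, 3.44% the interferon response element core, 8.30% the gamma activated site and 8.46% the kappaB consensus. Windows were found for 25 of the 31 members, 27 windows in all, of which 9 held a CCAAT box, 9 the TATA box, 2 the interferon response element core (Cxcl10 and Cxcl14), 3 the gamma activated site (Ccl17, Ccr6 and Cxcl14) and 6 the kappaB consensus. The genes with a kappaB match were Cxcl10, Cxcl1, Cxcl3, Ackr2, Ccr3 and Ccr6. These matches describe the letters of the windows.

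Among the 3 ligands of Cxcr3, the receptor of activated T and natural killer cells, the values did not run together. Cxcl10, like Cxcl9 an interferon-induced ligand, had -1.36 on array 1 and 0.28 on array 2, on opposite sides of 0 and with a gap at or above that of 99.3% of genes. Its mean of -0.54 ± 1.16 (SD, n = 2) did not pass (adjusted p = 0.408 in limma). Cxcl11, the remaining ligand, had -0.26 and -0.34, a close pair with a mean of -0.30 ± 0.06 and an adjusted p of 0.258 in limma. Cxcr3 itself had a value on array 1 only, 0.40, and was not tested. The difference between Cxcl9 and the other ligands of Cxcr3 was not tested.

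The CXC ligands that attract neutrophils through Cxcr2 were measured in part. Cxcl1 had 0.14 on array 1 and 0.99 on array 2, both positive, with a mean of 0.56 ± 0.60 (SD, n = 2) that did not pass (adjusted p = 0.207 in limma). Cxcl3 lay at 0 within its spread, with -0.07 and 0.01. Cxcr2 had a value on array 2 only, -0.10. Cxcl1 and Cxcl3 are close relatives of Cxcl2, so their probes may read more than 1 gene.

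The other CXC ligands lay near 0 or on the negative side. Cxcl12, the stromal ligand that retains leukocytes and progenitors through Cxcr4, had -0.54 and -0.29, both negative, with a mean of -0.41 ± 0.18 (SD, n = 2) and an adjusted p of 0.179 in limma. Cxcl16, a membrane-bound ligand and scavenger receptor, was the 1 member with more than 1 probe, and the mean of its probes was -0.13 on array 1 and -0.24 on array 2. Its probes gave -0.01 and -0.45, and -0.24 and -0.03, on arrays 1 and 2, so all 4 values were below 0. Cxcl14, made by epithelia, had -0.16 and -0.05. Cxcl13, which draws B cells into follicles, had -0.24 and 0.26 and thus no consistent side. Of the 9 CXC ligands measured, 1 passed and 2 had an unadjusted p under 0.05.

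Of the CC ligands that attract monocytes and effector cells, Ccl3 and Ccl4 were positive on both arrays. Both are made by activated macrophages and lymphocytes. Ccl3 had 0.42 and 0.47, the closest pair among the 8 CC ligands, with a mean of 0.44 ± 0.04 (SD, n = 2). Ccl4 had 1.43 on array 1 and 0.39 on array 2, with a mean of 0.91 ± 0.74. Neither passed (adjusted p = 0.148 for Ccl3 and 0.127 for Ccl4 in limma). They are related genes, and whether a probe reads both was not checked.

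Ccl5, a T cell and platelet chemokine, had the widest gap of the family, with -2.06 on array 1 and 0.07 on array 2. The gap of 2.13 was at or above that of 99.9% of genes, and the mean of -0.997 ± 1.50 (SD, n = 2) did not pass (adjusted p = 0.254 in limma). Ccl6, which attracts myeloid cells, had 0.46 and -0.13. Ccl8, a monocyte chemoattractant that in mice also binds Ccr8, had -0.35 and -0.77, both negative, with a mean of -0.56 ± 0.29 and an adjusted p of 0.133 in limma.

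Of the remaining CC ligands, Ccl25, which guides lymphocytes to the thymus and small intestine through Ccr9, had 0.59 and 1.15. Both values were positive, and its mean of 0.87 ± 0.40 (SD, n = 2), with a 95% limma interval from 0.37 to 1.37, came nearest to the threshold among the members that did not pass (adjusted p = 0.0837 in limma). Ccl17 and Ccl22, made by dendritic cells and macrophages and both ligands of Ccr4, were negative on both arrays. Ccl17 had -0.20 and -0.59 and Ccl22 -0.20 and -0.77, with means of -0.39 ± 0.27 and -0.49 ± 0.40 that did not pass (adjusted p = 0.215 and 0.191 in limma). Of the 8 CC ligands, 0 passed in limma and 4 had an unadjusted p under 0.05.

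Cx3cl1, fractalkine, is a ligand anchored to the surface of endothelial and epithelial cells. It had -0.49 on array 1 and -0.93 on array 2, both negative. Its mean of -0.71 ± 0.31 (SD, n = 2), with a 95% limma interval from -1.17 to -0.25, was the member on the negative side with the smallest p and did not pass (adjusted p = 0.0977 in limma). In the RefSeq table of GRCm38.p6, Ccl22, Cx3cl1 and Ccl17 follow each other on chromosome 8 with no other protein-coding gene between them, and all 3 were negative on both arrays.

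A longer run of neighbours on chromosome 11, Ccl5, Ccl9, Ccl6, Ccl3 and Ccl4, held both sides: Ccl3 and Ccl4 were positive on both arrays, Ccl5 and Ccl6 were mixed, and Ccl9 had no value. Ccr8 is next to Cx3cr1 on chromosome 9. Cx3cr1, the fractalkine receptor of monocytes, microglia and some lymphocytes, had 0.36 and 0.28, a close pair with a mean of 0.32 ± 0.06 (SD, n = 2) and an adjusted p of 0.238 in limma.

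Of the 10 signalling receptors measured, Ccr8 alone passed. Both arrays were positive for 3 and negative for 2, and the signs were mixed for 5. Cxcr4, the receptor of Cxcl12 found on most leukocytes and many carcinoma cells, had -0.36 and -0.49, with a mean of -0.42 ± 0.09 (SD, n = 2; adjusted p = 0.162 in limma). Ccr2, which brings inflammatory monocytes out of the marrow, had -0.91 and -0.20, with a mean of -0.56 ± 0.50 (adjusted p = 0.181 in limma). Both were negative on each array. Ccr4, a receptor of helper and regulatory T cells, had 0.09 and 0.15.

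The receptors of mixed sign were Ccr3, Ccr6, Ccr9, Ccr10 and Cxcr5. Ccr3, the eotaxin receptor of eosinophils, had 0.85 on array 1 and -0.90 on array 2, a gap at or above that of 99.5% of genes. Ccr10, of skin-homing and plasma cells, had 0.49 and -0.61, and Ccr6, the receptor for Ccl20, had 0.47 and -0.35. Ccr9, the receptor for Ccl25, had 0.08 and -0.61, and Cxcr5, the follicle-homing receptor for Cxcl13, had -0.30 and 0.03. In this group array 1 lay above array 2 except for Cxcr5, and by limma 0 of the 5 passed and 0 reached an unadjusted p under 0.05.

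The plot of array 1 against array 2 shows these gaps. The median gap between arrays was 0.44 for the 31 members and 0.25 for all genes, and 67.7% of members and 72.2% of all genes had the same sign on both arrays. The median distance of the mean from 0 was 0.39 for the members and 0.27 for all genes.

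**Figure D2:**
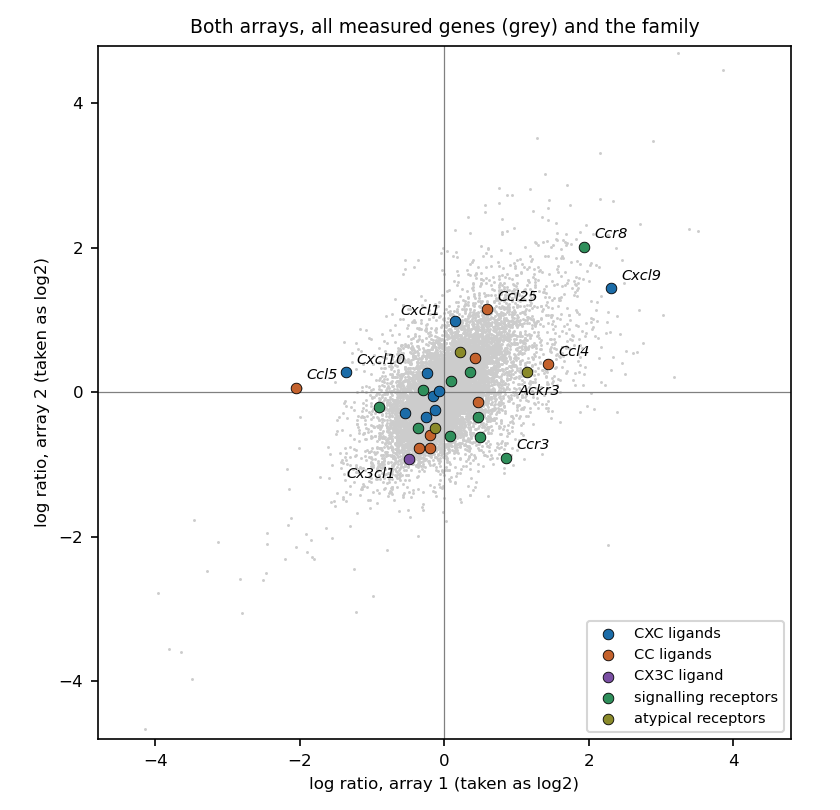
Log ratio on array 1 (horizontal axis) against array 2 (vertical axis), both taken as log2, for all 13506 measured genes in grey and the 31 chemokine and receptor genes in colour. Ccr8 and Cxcl9 lie far from 0 on both axes, Ccl5 and Cxcl10 lie far out on array 1 alone, and Ccr3 falls in the quadrant of opposite signs.

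A second count took genes at least 1 log2 unit from 0 on both arrays, on the same side. Ccr8 and Cxcl9 met it, 2 of 31, against 2.27% of all genes in either direction and 1.69% on the positive side. On array 2 alone, 3 members lay that far from 0, Ccl25 being the added one. On array 1 alone there were 6, with Ackr3, Ccl4, Ccl5 and Cxcl10 beside Ccr8 and Cxcl9.

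The 3 atypical receptors measured kept their sign on both arrays, and none passed. Ackr3, which scavenges Cxcl12, had 1.14 and 0.28, both positive and unequal, with a mean of 0.71 ± 0.61 (SD, n = 2; adjusted p = 0.150 in limma). Ackr2, a decoy for inflammatory CC ligands, had 0.22 and 0.56, with a mean of 0.39 ± 0.24 (adjusted p = 0.208 in limma). Ackr4, a scavenger of Ccl19, Ccl21 and Ccl25, had -0.13 and -0.49, with a mean of -0.31 ± 0.26 (adjusted p = 0.289 in limma). One of the 3, Ackr3, had an unadjusted p under 0.05.

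Of 16 receptors listed with their ligands, 10 were measured on both arrays, 6 of them with at least 1 measured ligand. Cxcr4 and Cxcl12 lay on the same side, at -0.42 and -0.41. Ccr8 and Ccl8 lay on opposite sides, at 1.97 and -0.56, and so did Cx3cr1 and Cx3cl1, at 0.32 and -0.71. Of the 2 ligands listed for Ccr8, Ccl8 alone was measured. Ccr4 was at 0.12, against -0.39 for Ccl17 and -0.49 for Ccl22. Ccr9 was at -0.26 with mixed signs, against 0.87 for Ccl25, and Cxcr5 and Cxcl13 were at -0.14 and 0.01 with mixed signs. Only Ccr8 of these passed, and differences between a receptor and its ligand were not tested.

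**Figure D3:**
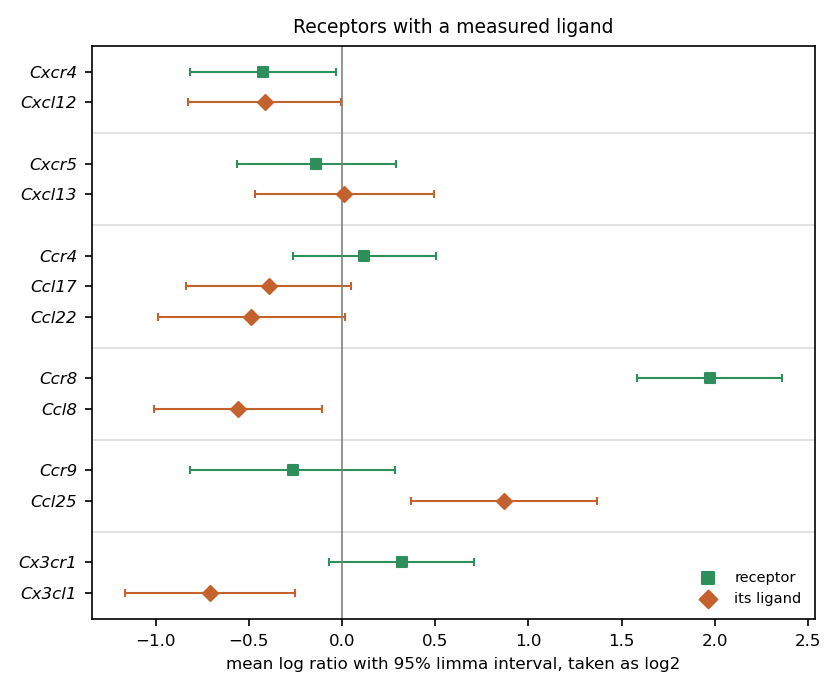
Mean log ratio of 2 arrays (taken as log2, horizontal axis) with its 95% limma interval for the 6 receptors (green squares) that had a measured ligand (orange diamonds). The intervals are not adjusted for the number of genes. Those of Cxcr4, Cxcl12, Ccl8 and Cx3cl1 lie below 0 and those of Ccr8 and Ccl25 above it. Of these genes, Ccr8 alone had an adjusted p under 0.05. Ccr8 at 1.97 lies on the side opposite to Ccl8 at -0.56.

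Some members could not be tested. The array carries probes for 50 genes of the family, of which 31 (62.0%) had a value on both arrays, against 82.4% of all genes. A value was present on array 1 only for Ccl11, the eosinophil chemoattractant eotaxin, at 1.32, for Ccl20, the ligand of Ccr6, at 1.65, for the monocyte chemoattractant Ccl2 at -0.40 and for Cxcr3 at 0.40. On array 2 only were Xcl1, a ligand from activated lymphocytes, at 1.39, Ccl7, another monocyte chemoattractant, at 1.32, the lymph node homing receptor Ccr7 at 0.84 and Cxcr2 at -0.10. For 11 genes (22.0%, against 8.5% of all genes) neither array had a value. These were the ligands Cxcl2, Cxcl5, Cxcl15, Ccl9, Ccl12 and Ccl24, the receptors Ccr1, Cxcr1, Cxcr6 and Xcr1, and the atypical receptor Ackr1. The filter that emptied these cells is not given in the sources used here.

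Genes that act around the family were counted from lists of inducers, signalling partners, proteases and carriers. Of 112 such genes measured, limma called 4 (3.57%, against 2.90% of all genes), and 33 (29.5%, against 27.5%) had an unadjusted p under 0.05. Signalling components below the receptors were measured for 32 genes of 43, with a median of -0.14, 8 positive and 17 negative on both arrays. The unadjusted p in limma was under 0.05 for 9 of them (28.1%, against 27.5% of all genes). Rgs16, which shortens G protein signals of chemokine receptors, had -2.83 on array 1 and -2.59 on array 2 and was the 1 called member, at -2.71 ± 0.17 (SD, n = 2; adjusted p = 0.0200 in limma). Arrb1, a beta-arrestin that internalises receptors, had 1.33 and 0.73 and Prkcd, a protein kinase C, -0.69 and -0.71, and neither passed. The G protein subunits Gnai2 and Gnai3 lay close to 0, with -0.20 and -0.34, and with -0.22 and -0.23.

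Among 29 measured inducers of chemokine genes the median was -0.08, with 4 positive and 11 negative on both arrays. By limma 0 of them passed, and the unadjusted p was under 0.05 for 2 (6.9%, against 27.5% of all genes). Ifng, the interferon gamma gene, had 0.83 and 0.42, and the NF-kappaB subunit Nfkb2 had -0.87 and -0.63. Of the receptor chains of interferon gamma, Ifngr2 had 0.46 and 0.32 and Ifngr1 had -0.22 and -0.06. Of 16 genes induced by interferon gamma, as Cxcl9 is, 8 lay on the positive and 4 on the negative side of both arrays, and the median was 0.28, from 0.04 on array 1 and 0.36 on array 2. Ido1, an enzyme of tryptophan breakdown, was called on the positive side, with 1.11 and 1.27, a mean of 1.19 ± 0.12 (SD, n = 2) and an adjusted p of 0.0420 in limma. Tap2, a peptide transporter, had 0.62 and 1.15 and Psmb9, an immunoproteasome subunit, 0.49 and 1.27, and neither passed. Those negative on both arrays were Irgm1 (-0.36 and -0.99), Cd274 (-0.41 and -0.55), Ciita (-0.30 and -0.23) and Icam1 (-0.09 and -0.37), and none passed.

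Chemokines are trimmed by proteases and held on heparan sulfate. Of 24 such genes measured, 8 lay on the positive and 11 on the negative side of both arrays, with a median of -0.07. The unadjusted p in limma was under 0.05 for 9 of them (37.5%, against 27.5% of all genes). Sulf2, which removes sulfate groups from heparan sulfate, was called on the negative side, with -1.14 and -1.34 and a mean of -1.24 ± 0.14 (SD, n = 2; adjusted p = 0.0398 in limma). The collagenase Mmp13 had -0.81 and -0.86 and the proteoglycan Sdc4 -0.74 and -0.88, without passing.

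Chemoattractants whose symbols fall outside the family's names gave 12 measured genes of 24, 2 positive and 8 negative on both arrays, with a median of -0.30. The unadjusted p in limma was under 0.05 for 5 of them (41.7%, against 27.5% of all genes). Mif, a cytokine that also binds Cxcr4, was called at -1.15 ± 0.06 (SD, n = 2; adjusted p = 0.0430 in limma), from -1.19 and -1.10. The chemokine-like membrane proteins Cmtm4 and Cmtm3 had -0.74 and -1.11, and 0.51 and 0.76. The platelet chemokine Ppbp had -0.26 and -0.49, and the receptor-like gene Ccr1l1, whose name the pattern leaves out, had -0.57 and -0.78. Both are relatives of the family that were named after their values were seen, and neither passed. Under the 7 alternatives the call of Rgs16 held in 5, and those of Ido1, Sulf2 and Mif in 2 each, centring and robust moderation.

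**Figure D4:**
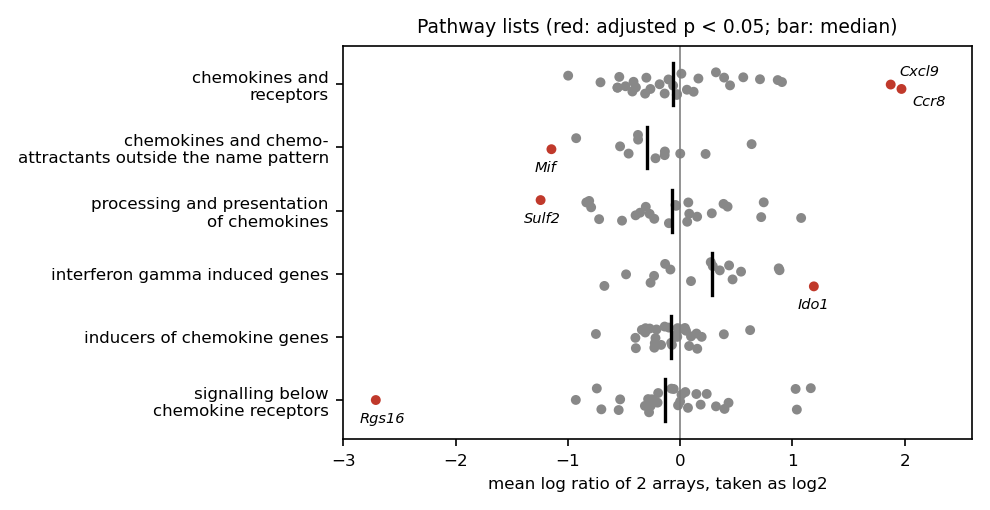
Mean log ratio of 2 arrays (taken as log2, horizontal axis) of each measured gene in 5 pathway lists and in the chemokine family, 1 row per list, with the list's median as a black bar and genes with an adjusted p under 0.05 in red. Rgs16, Sulf2 and Mif lie on the negative side, and Ido1, Cxcl9 and Ccr8 on the positive side.

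Among 74 measured markers of cell types, limma called 5 (6.76%, against 2.90% of all genes), and 28 (37.8%, against 27.5%) had an unadjusted p under 0.05. T cell genes were measured for 9 of 11, and beside Ccr8 they had a median of 0.09, which was 0.33 on array 1 and -0.06 on array 2, with 2 on the positive side of both arrays, 2 on the negative side and 5 mixed. Cd2 had 0.82 and 1.16 and Cd5 0.68 and 1.26, while Cd247 had -0.50 and -0.16. By limma 0 of the 9 passed, and the unadjusted p was under 0.05 for 2. Dendritic cell genes (7 of 8 measured, 3 positive and 1 negative on both arrays and 3 mixed) held the call of Cd83 at 1.09 ± 0.24 (SD, n = 2; adjusted p = 0.0483 in limma), with Itgax at 1.21 and 0.65. The negative one was Fscn1, with -0.20 and -1.01, and the mixed ones were Zbtb46, Batf3 and Siglech. Macrophage and monocyte genes (5 of 10 measured, 2 positive and 3 negative) held the call of Cd14 at -1.20 ± 0.33 (adjusted p = 0.0475 in limma). The positive ones were Fcgr1, with 0.75 and 1.48, and Cd163, with 0.39 and 0.93, and neither passed. Of 7 endothelial genes of 10, all 7 were positive on both arrays and 2, Flt1 and Robo4, were called. The 3 measured genes of the liver sinusoidal endothelium were 1 positive (Fcgr2b, 0.48 and 1.35), 1 negative (Lyve1, -0.38 and -0.07) and 1 mixed (Stab1), with a median of 0.03. Of 7 fibroblast and stellate cell genes, 5 were negative on both arrays, Des was positive, with 1.01 and 0.78, and Pdgfra was mixed. Col1a1 was called at -2.93, while the collagen chains Col1a2 and Col3a1 had -0.24 and -0.40 and did not pass. Of the 7 alternatives, the call of Col1a1 held in 5, those of Cd83 and Flt1 in 1 (centring), and those of Cd14 and Robo4 in 0. Hepatocyte genes were 2 positive, 4 negative and 3 mixed of 9, and carcinoma genes 1, 1 and 2 of 4. Limma called 0 in both lists, with 4 and 0 at an unadjusted p under 0.05. In the same order, colonic epithelium genes were 1, 4 and 1 of 6, and NK cell genes 0, 3 and 1 of 4. Neutrophil genes were 2, 2 and 0 of 4, and B and plasma cell genes 2, 1 and 1 of 4. Kupffer cell genes were 1, 0 and 2 of 3, and platelet genes 1, 0 and 1 of 2. Limma called 0 in each, with 2, 1, 2, 2, 0 and 0 at an unadjusted p under 0.05. The part of these cell types in the ratios of Ccr8 and Cxcl9 was not tested.

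**Figure D5:**
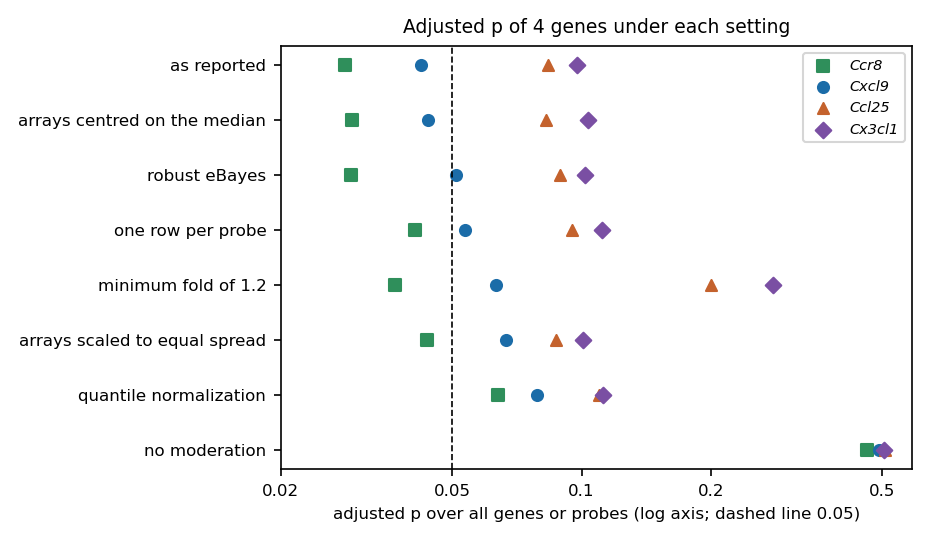
Adjusted p (log axis) of Ccr8, Cxcl9, Ccl25 and Cx3cl1 under the reported fit and 7 alternative settings, with a dashed line at 0.05. Ccr8 lies left of the line in all but quantile normalization and the fit without moderation, Cxcl9 in the reported fit and after centring, and Ccl25 and Cx3cl1 in none.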

How the data were processed

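Of 23473 probes in the deposited table, 18837 had a value on both arrays. The deposited values are log ratios of the 2 channels, taken as log2. A natural log is possible, and the sources used here give neither the numerator nor the background correction, filter or normalization. Of all probes, 16631 carried 1 symbol in the platform annotation, 6842 carried none and 0 carried several. Through the GRCm38.p6 RefSeq table, 3947 symbols were updated by a unique synonym and 62 kept as given, and 5 measured members changed name (Blr1 to Cxcr5, for example). Probes of a gene were averaged.

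The test of each gene against 0 used limma 3.58.1 under R 4.3.3 (lmFit, eBayes; 1 residual and 4.06 prior degrees of freedom), with Benjamini-Hochberg adjustment over 13506 genes and a threshold of 0.05. The script was tested on simulated ratios. There, 14% of genes with a true change of 1 log2 unit were called and 96% of those with 2 units. Of 167 calls, 13 were false. The simulated noise was independent between arrays and held no dye bias, so these shares are not error rates of the reported calls. The 7 alternatives with a test were centring, equal spread, quantile normalization, robust moderation, a minimum fold of 1.2, no moderation and a fit on probes. Every measured member is named. From other lists, called genes and up to 3 genes were named, those whose weaker array lay farthest from 0, of the marker lists only in part. Gnai2, Gnai3, Ppbp, Ccr1l1, Stab1, Pdgfra, Col1a2 and Col3a1 were added after their values were seen. So were Ifngr1, Irgm1, Cd274, Ciita, Icam1, Fscn1, Zbtb46, Batf3 and Siglech. The members and lists were chosen with earlier results of these data known. Figures used matplotlib 3.10.9.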

Additional observations from a re-analysis of the deposited data

How the results depend on the processing

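Of 31 chemokine and receptor genes, 2 were called as reported and 2 after centring. The number was 1 (Ccr8) with equal spread, robust moderation, a minimum fold of 1.2 or a fit on probes. It was 0 in limma after quantile normalization, where 9 had an unadjusted p under 0.05, and 0 without moderation, where 2 did. Over all genes, 391 were called as reported, 4 after quantile normalization, 51 with equal spread, 161 in the fit on probes and 108 under a minimum fold of 1.2. Without moderation 0 passed in limma, and 1450 reached an unadjusted p under 0.05. Of the pathway lists, 4 genes were called as reported and 1 (Rgs16) with equal spread, a minimum fold of 1.2 or the fit on probes. Limma called 0 of them after quantile normalization and 0 without moderation, with 33 and 13 at an unadjusted p under 0.05. The count at least 1 log2 unit from 0 was 2 on both arrays and ranged from 3 to 6 on 1 array alone.

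Of 217 pairs of a member and an alternative with a test, 205 kept direction and side of the threshold, 8 lost the call and 4 changed sign. Most pairs belong to members that were not called as reported, so the 205 says little about the calls. Of 7 alternatives, the call of Ccr8 held in 5 and that of Cxcl9 in 1. Robust moderation, the minimum fold, no moderation and the fit on probes left the means of members unchanged, so no sign could change there. Ccr3 turned to 0.048 with equal spread and 0.011 after quantile normalization, and Cxcl13 to -0.0098 and -0.0104, all near 0 and uncalled. The cause of these changes was not tested. Each value is a ratio of both tissues within 1 array, so the reported test is paired by array and no further block was fitted. No pairing by mouse is claimed, and leaving out 1 array leaves no test. Intensities were not used here, so the effect of dim probes was not tested.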
